A study of Mus musculus with 10 samples.

Results

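The complement genes examined here are 31 genes of the mouse complement system, taken by symbol and sorted into the classical, lectin and alternative arms, C3, the terminal pathway, regulators and receptors. A probe matched 30 of the 31 by its RefSeq accession; for C7 no probe was matched, and it is not analysed here. Of these 30 genes, 27 were among the 26124 genes tested across the series, and Hc, C8a and C9 are described apart because of their marked spots. Liver RNA came from male C57BL/6N mice given ethanol or isocaloric maltose by gavage, in a study whose title names ethanol, liver injury, ER stress, adipocyte death and lipolysis. The control group of 3 arrays received maltose matched to 5 g/kg ethanol, 4 arrays came from mice given 5 g/kg ethanol and 3 from mice given 7 g/kg ethanol. No maltose group matched to 7 g/kg is labelled, so that dose was compared with the same controls. Age and the time from gavage to collection are not given in the sources used here.

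Each array compared liver RNA in Cy5 with a commercial mixed mouse RNA in Cy3, whose channel the labels also give as liver. Values are log2 ratios of liver over this reference after loess normalization within each array. A value of 0 is thus the array's usual ratio at that intensity, not equal signal in both channels. It says nothing of how abundant a transcript is. The ratios of the 27 tested complement genes lay between -0.80 and 1.02 over the 10 arrays. Median Cy5 intensities ranged from 121 to 219 over a background of 21 to 24, and no spot was saturated. Of 10 tested hepatocyte markers, 3 (Alb, Apoa1 and Ahsg) stood above 0 on every array. F2, at -0.15 to -0.03, was the 1 marker below 0 on every array, and 6 lay on both sides. The mean of the 10 markers per array was 0.16 to 0.68. Nothing in the labels says that the samples of a group came from separate animals, so p-values measure the spread between these samples, which may be technical.

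Complement is a cascade of plasma proteases and pore-forming proteins, most of them made by hepatocytes. The classical arm is started by C1q bound to antibody and the lectin arm by mannose-binding lectins or ficolins bound to microbial sugars. Both cleave C4 and C2, while the alternative arm amplifies through factors B and D; all converge on C3, and cleavage of C5 then starts assembly of C6 to C9 into a membrane pore. Soluble and membrane-bound regulators hold each step in check on the host's own cells.

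After 7 g/kg ethanol, C6, C4bp, Vtn, Mbl1 and C4b were higher than in controls, and Mbl2 and Cd59a were lower, with sizes between 1.31-fold and 1.58-fold. After 5 g/kg, Mbl2 was the 1 member that passed, and it was lower. Between the doses, C6 alone passed, higher at 7 g/kg. The other 20 tested members, C3 among them, passed in no comparison. The threshold was 0.05 for the p-value of a limma fit of the 3 groups, adjusted over the whole table by the Benjamini-Hochberg method.

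In counts, 7 of 27 members passed at 7 g/kg, where 8.91% of all genes tested did. At 5 g/kg, 1 of 27 passed against 3.77% of all genes, which is near the background; that gene was lower, against 1.59% of all genes, and 0 were higher, against 2.19%. Between the doses the count was 1 of 27, against 1.56%, and that gene was higher, against 0.678%. By direction at 7 g/kg, 5 members were higher, against 4.64% of all genes, and 2 were lower, against 4.28%. The values of 11 members did not overlap between 7 g/kg and control, against 25.3% of all genes. The corresponding counts were 4 members at 5 g/kg, against 16.8%, and 5 between the doses, against 10.9%. The median log2 change over the tested members was 0.05, 0.07 and 0.05 in these comparisons, taken in the order of low dose, high dose and high against low dose, beside 0.00, 0.01 and 0.01 over all genes. The 3 comparisons share samples in pairs and are not independent.

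The 95% interval of the change lay within 2-fold in either direction for all 27 members in each comparison, as it did for 97.8%, 95.8% and 98.6% of all genes. At 7 g/kg 19 members had changes above 0 and 8 below, and after 5 g/kg the split was 16 and 11. With each array centred on its median in place of loess, C6, C4bp and Mbl2 kept their calls at 7 g/kg, while Mbl1, Vtn, Cd59a and C4b missed the threshold (adjusted p = 0.0796, 0.0835, 0.0851 and 0.193). From the Cy5 channel alone C6 was the 1 member that passed.

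**Figure D1:**
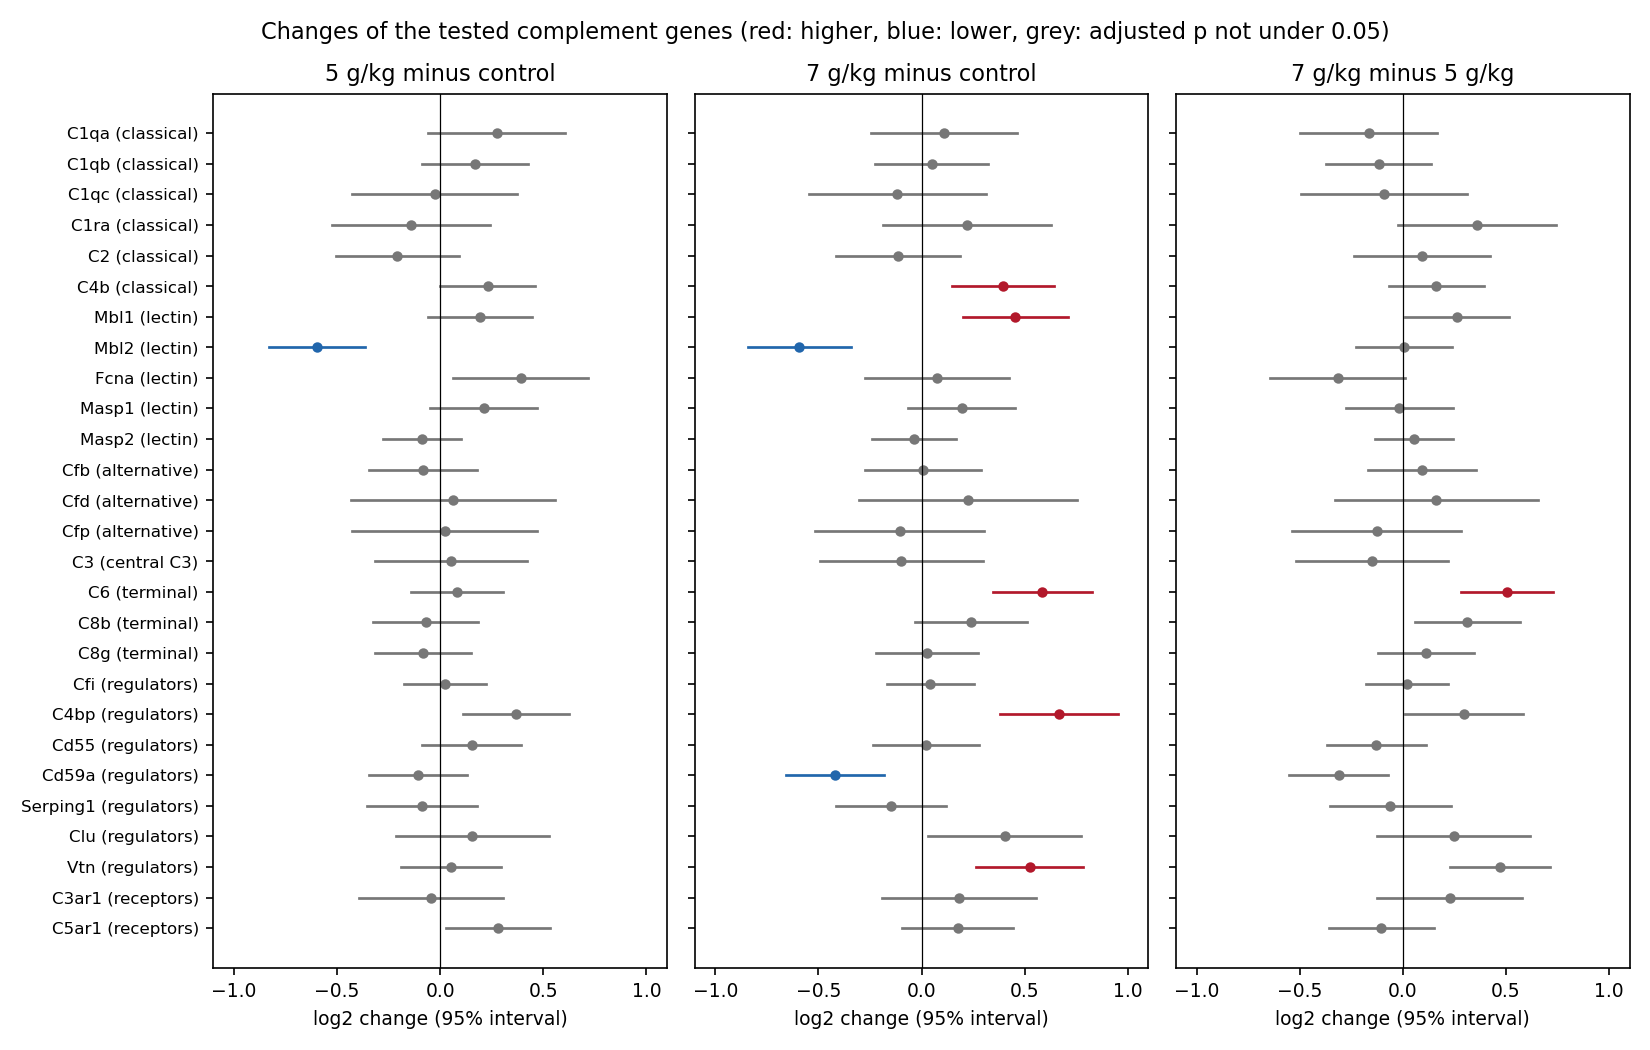
Log2 change of each of the 27 tested complement genes for the low dose, the high dose and the high against the low dose (x axis, points with 95% intervals from limma), with genes grouped by arm on the y axis. Red and blue mark genes that were higher or lower at an adjusted p under 0.05: Mbl2 at 5 g/kg, 7 genes at 7 g/kg, and C6 between the doses.

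In the lectin arm the paired mannose-binding lectins went opposite ways. Mbl2, which encodes mannose-binding lectin C, read 0.07, 0.50 and 0.36 in the 3 control samples. It read -0.25, -0.33, -0.32 and -0.25 with 5 g/kg and -0.34, -0.31 and -0.19 with 7 g/kg. Every ethanol sample lay below every control, and the doses overlapped. The log2 change was -0.60 (SE 0.109, adjusted p = 0.00642) at 5 g/kg and -0.59 (SE 0.116, adjusted p = 0.00466) at 7 g/kg, each 1.51-fold lower. Between the doses the change was 0.00, with a 95% interval from -0.23 to 0.24. Arrays came from 4 slides that each held samples of more than 1 group. Within slides the Mbl2 change ran from -0.83 to -0.32 at 5 g/kg and from -0.84 to -0.55 at 7 g/kg, and with slide as a block it was -0.59 (adjusted p = 0.0164) and -0.62 (adjusted p = 0.0140). From the Cy5 channel alone, without the reference, the changes were -0.66 and -0.55, and neither passed (adjusted p = 0.105 and 0.122).

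Mbl1, encoding mannose-binding lectin A, read -0.38, -0.20 and -0.48 in controls. The 3 usable values at 5 g/kg were -0.02, -0.20 and -0.26, and at 7 g/kg they were -0.04, 0.15 and 0.19. The 7 g/kg samples all exceeded the controls, and the 5 g/kg samples overlapped with them. The change was 0.46 at 7 g/kg (SE 0.118, adjusted p = 0.0275) and 0.19 at 5 g/kg (adjusted p = 0.499). On the 2 slides that held both groups it was 0.17 and 0.67, and with slide as a block 0.48 (adjusted p = 0.0779), so the Mbl1 call does not hold under that block. It was also lost without control sample 1 (adjusted p = 0.0920) or 3 (0.112), and without 7 g/kg sample 2 (0.0859) or 3 (0.0885).

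The starts of Mbl1 and Mbl2 are shown because these paralogs changed in opposite directions. Each sequence runs from 250 bases before to 50 bases after the RefSeq start in GRCm38.p6, on the gene's strand. Mbl1 covers chr14:41151206-41151505 and Mbl2 covers chr19:30232678-30232977, both on the plus strand. Capitals mark the longest identical stretch of the pair, 13 bases that lie at -23 to -11 from the start of Mbl1 and at -57 to -45 from that of Mbl2.
Mbl1: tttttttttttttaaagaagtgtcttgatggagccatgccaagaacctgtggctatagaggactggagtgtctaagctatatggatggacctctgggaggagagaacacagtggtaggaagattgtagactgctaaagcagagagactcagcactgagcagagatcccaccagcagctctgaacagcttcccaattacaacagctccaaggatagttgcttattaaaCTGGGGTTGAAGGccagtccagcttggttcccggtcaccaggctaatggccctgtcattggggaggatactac
Mbl2: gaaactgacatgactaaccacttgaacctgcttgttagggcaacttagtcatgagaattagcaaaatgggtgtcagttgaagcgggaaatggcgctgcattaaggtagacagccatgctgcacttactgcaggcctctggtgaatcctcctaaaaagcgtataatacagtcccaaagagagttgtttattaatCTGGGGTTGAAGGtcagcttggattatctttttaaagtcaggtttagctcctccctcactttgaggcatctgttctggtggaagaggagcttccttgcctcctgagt
The stretch occurs, on either strand, in 3 of the 32851 promoter windows in the RefSeq table. These include the windows of Mbl1 and Mbl2 themselves, from which the stretch was picked.

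The other lectin-arm genes passed in no comparison. Fcna, encoding ficolin A, a lectin of liver macrophages, read -0.18, -0.19 and -0.76 in controls and -0.11, 0.11, 0.23 and -0.17 at 5 g/kg. All 5 g/kg samples thus lay above the controls, by 0.39 on average, but the change missed the threshold (adjusted p = 0.215). At 7 g/kg the values were -0.50, -0.29 and -0.11, of which the highest lay above the controls and the other 2 within their range. Masp1 and Masp2, which encode serine proteases of the lectin arm, changed by 0.21 and -0.09 at 5 g/kg and by 0.19 and -0.04 at 7 g/kg. A second Masp1 probe gave 0.03 and 0.27. Masp2 was read by 3 probes, and another of them gave -0.43 and -0.45 at the doses, which the main probe did not show.

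In the classical arm, C4b, the gene of the C4 protein, read -0.68, -0.37 and -0.55 in controls. Its values were -0.23, -0.16, -0.38 and -0.45 with 5 g/kg and -0.12, -0.21 and -0.09 with 7 g/kg. The 7 g/kg samples stood above all controls, while 5 g/kg samples overlapped with both. C4b was 1.31-fold higher at 7 g/kg (log2 change 0.39, SE 0.116, adjusted p = 0.0478), and at 5 g/kg the change was 0.23 (adjusted p = 0.327). Within slides the 7 g/kg change was 0.25 and 0.46. The call sat at the threshold. It was lost with slide as a block (0.41, adjusted p = 0.0762) and without any 1 of 8 samples: controls 1 and 3, 5 g/kg samples 1, 2 and 3, and each 7 g/kg sample, where adjusted p ran from 0.0521 to 0.203.

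C4a, also called sex-limited protein, is a near-identical copy of C4b, and signal may be shared between their probes. It changed by 0.45 at 7 g/kg without passing (adjusted p = 0.0680).

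C1qa, C1qb and C1qc encode the chains of C1q and are made mainly by macrophages. Their changes were 0.27, 0.17 and -0.03 with 5 g/kg and 0.11, 0.05 and -0.12 with 7 g/kg, and none passed. C1qa read -0.34, -0.49 and -0.80 in controls, -0.37, 0.02, -0.34 and -0.37 with 5 g/kg, and -0.50, -0.70 and -0.09 with 7 g/kg. The 3 groups overlapped. None of the 13 tested Kupffer cell and macrophage markers, of 15 listed, passed in any comparison either. An unadjusted limma p under 0.05 was reached by 0 of the 13 at 5 g/kg, 2 at 7 g/kg and 3 between the doses. Over all 26124 genes the counts were 4037, 5228 and 2813. The mean log2 ratio of the 13 markers per array ranged from -0.05 to -0.01 in controls, -0.09 to 0.03 at 5 g/kg and -0.21 to 0.09 at 7 g/kg. In bulk liver, fewer cells of a type and less RNA per cell cannot be told apart.

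C1ra encodes the protease that activates C1s. It lay between -0.00 and 0.24 in all samples except 7 g/kg sample 3, at 1.02. The change at 7 g/kg, 0.22, was far from the threshold (adjusted p = 0.614). C2, the protease component of the C3 convertase, changed by -0.21 and -0.11, with 2 usable values in each ethanol group. A second C2 probe, with no marked spots, gave -0.23 and -0.25.

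**Figure D2:**
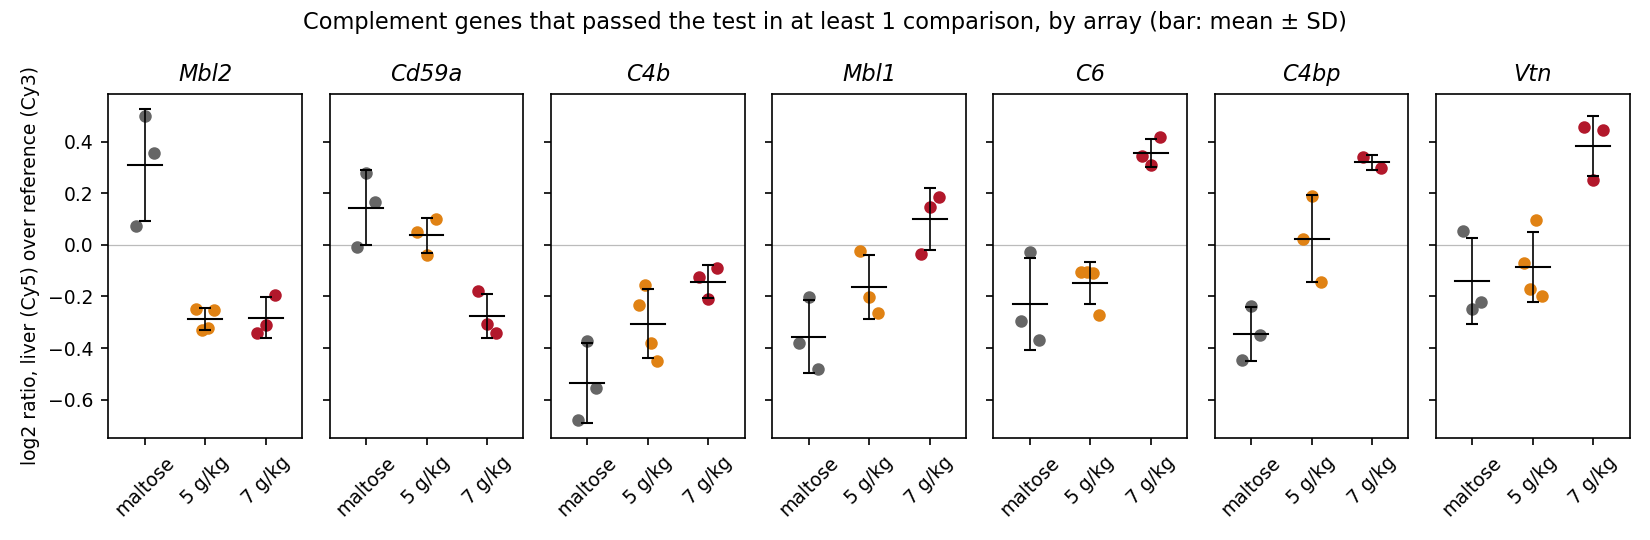
Log2 ratio of liver over reference (y axis) in each array for the 7 complement genes that passed in at least 1 comparison, by group on the x axis; points are arrays, horizontal bars means and vertical bars SD. Mbl2 is below all controls at both doses, while C6, C4bp and Vtn at 7 g/kg are above every sample of the other groups.

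In the terminal pathway, C6, which joins C5b at the first step of pore assembly, was higher at the upper dose. It read -0.29, -0.03 and -0.37 in controls, -0.11, -0.11, -0.11 and -0.27 with 5 g/kg, and 0.34, 0.31 and 0.42 with 7 g/kg. The 7 g/kg samples lay above all 7 others, and the 5 g/kg samples lay within the control range. C6 was higher at 7 g/kg than in controls (log2 change 0.59, SE 0.112, adjusted p = 0.00382). The change at 5 g/kg was 0.08, with a 95% interval from -0.14 to 0.30. Against 5 g/kg, the 7 g/kg samples were higher by 0.51 (SE 0.104, adjusted p = 0.0250).

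On the slides holding both groups, C6 was higher by 0.37 and 0.78 at 7 g/kg than in controls, and by 0.42 to 0.69 than at 5 g/kg. With slide as a block C6 was higher than in controls by 0.58 (adjusted p = 0.0154) and than at 5 g/kg by 0.50 (adjusted p = 0.0531), so the call against 5 g/kg is lost there. It was also lost without 5 g/kg sample 1, 2 or 4 or any 7 g/kg sample, with adjusted p from 0.0553 to 0.0882. The call of C6 against controls held under all 27 alternatives run, with values from 0.52 to 0.88.

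C8b and C8g encode the beta and gamma chains of C8. C8b read -0.19, -0.21 and -0.52 in controls, -0.25, -0.44, -0.51 and -0.30 with 5 g/kg, and -0.22, -0.08 and 0.11 with 7 g/kg. The samples of the 2 doses did not overlap, but the difference of 0.31 did not pass (adjusted p = 0.316). C8g changed by -0.09 and 0.03.

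Hc, which encodes C5, C8a, the alpha chain of C8, and C9, the pore-forming unit, had spots that the scanner software marked as non-uniform in the liver channel: on 4 arrays for Hc and on 9 each for C8a and C9. Marked spots were treated as missing, so these genes had too few values for the test. With the marked spots kept, C8a read -0.24, -0.04 and -0.36 in controls, -0.14, -0.30, 0.07 and -0.32 with 5 g/kg, and 0.41, 0.46 and 0.19 with 7 g/kg. All 7 g/kg values then exceeded the others, with a change of 0.57 against controls (SE 0.132, adjusted p = 0.0137) and of 0.53 against 5 g/kg (adjusted p = 0.0476). C9 changed by 0.32 at 7 g/kg (adjusted p = 0.253) and Hc by 0.11 (adjusted p = 0.644). Of the C8a spots behind these values, 1 of 10 was unmarked.

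**Figure D3:**
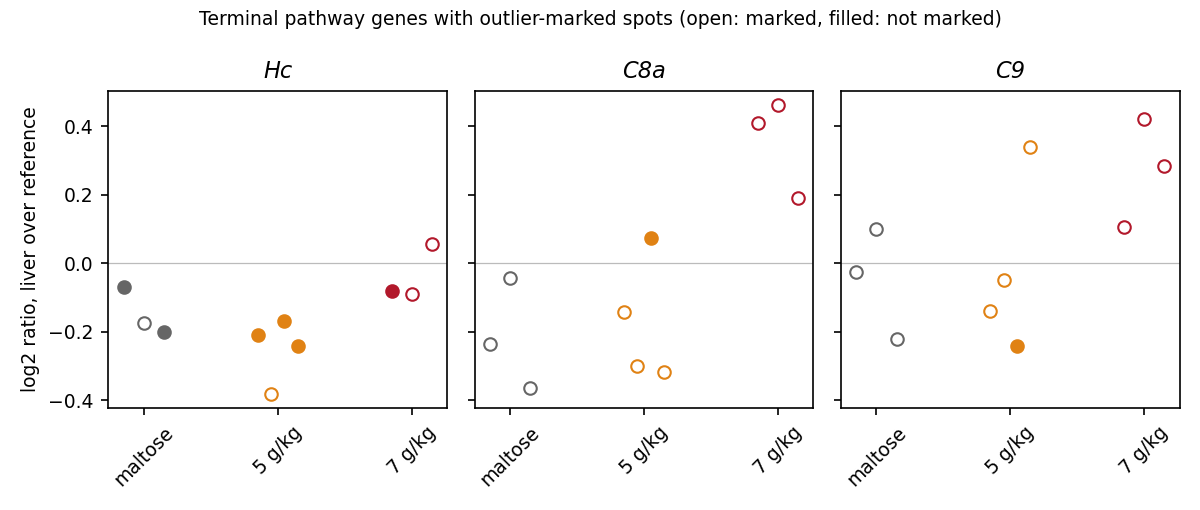
Log2 ratio of liver over reference (y axis) for Hc, C8a and C9 in each array by group, with marked spots open and others filled. At 7 g/kg all C8a values, from 0.19 to 0.46, lie above those of the other groups, and all 3 are from marked spots.

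Among the regulators, C4bp was the member with the largest change. It encodes the alpha chain of C4b-binding protein, which disassembles the C3 convertase of the classical and lectin arms. It read -0.45, -0.24 and -0.35 in controls, 0.02, 0.19 and -0.14 in the 3 usable 5 g/kg samples, and 0.34 and 0.30 in the 2 usable 7 g/kg samples. The 3 groups did not overlap and stood in the order of dose. C4bp was 1.58-fold higher at 7 g/kg (log2 change 0.66, SE 0.132, adjusted p = 0.00702). The low dose gave 0.37 (adjusted p = 0.125), and between the doses 0.30 (adjusted p = 0.444), neither of which passed. The 1 slide with usable control and 7 g/kg values gave 0.58, and the slide block 0.52 (adjusted p = 0.0470).

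Vtn encodes vitronectin, which keeps the C5b to C7 complex from inserting into membranes and also serves in cell adhesion. It read 0.05, -0.25 and -0.22 in controls, -0.07, -0.17, 0.10 and -0.20 with 5 g/kg, and 0.46, 0.25 and 0.44 with 7 g/kg. Controls and 5 g/kg samples were intermixed, below all 7 g/kg samples. The change was 0.52 at 7 g/kg (SE 0.121, adjusted p = 0.0131) and 0.05 at 5 g/kg (adjusted p = 0.886). Against 5 g/kg it was 0.47 and did not pass (adjusted p = 0.0561). Within slides the 7 g/kg change was 0.67 and 0.70, and under the slide block 0.55 (adjusted p = 0.0309). It was 0.19 from the Cy5 channel alone (adjusted p = 0.785). The Vtn call was lost without control sample 2 (adjusted p = 0.0590) or 3 (0.0578) or 7 g/kg sample 1 (0.0509).

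Cd59a, whose membrane-anchored product blocks C9 from joining the pore, was the regulator that was lower. It read -0.01, 0.28 and 0.17 in controls, 0.05, -0.04 and 0.10 with 5 g/kg, and -0.18, -0.31 and -0.34 with 7 g/kg. The 7 g/kg samples lay below all others. The change was -0.42 at 7 g/kg (SE 0.110, adjusted p = 0.0298), and a second probe of the gene gave -0.37. The low dose gave -0.11 (adjusted p = 0.731). Within slides the 7 g/kg change was -0.51 and -0.46, but with slide as a block the adjusted p was 0.0593. The call was also lost without control sample 2 (0.121) or 3 (0.0876) and without 7 g/kg sample 2 (0.0880) or 3 (0.0876). Its paralog Cd59b changed by 0.09 (adjusted p = 0.763).

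Promoters of the 3 most changed genes that were higher at 7 g/kg, C6, C4bp and Vtn, are shown for the motifs they hold. Windows were searched on both strands for a STAT-type site (TTCNNNGAA), a C/EBP-type site (TTGCNNAA) and an NF-kB-type site (GGGNNNNNCC). They were also searched for a partial HNF1 motif (GTTAAT), which is not a whole HNF1 site. Matches are in capitals. The windows are C6 at chr15:4726960-4727259 on the plus strand, C4bp at chr1:130661569-130661868 on the minus strand and Vtn at chr11:78498870-78499169 on the plus strand, from RefSeq on GRCm38.p6.
C6: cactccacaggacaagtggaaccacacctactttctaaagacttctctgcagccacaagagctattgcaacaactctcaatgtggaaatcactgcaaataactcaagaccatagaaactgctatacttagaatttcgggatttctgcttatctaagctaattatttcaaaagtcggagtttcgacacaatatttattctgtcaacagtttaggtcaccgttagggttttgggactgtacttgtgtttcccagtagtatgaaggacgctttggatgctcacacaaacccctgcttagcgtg
C4bp: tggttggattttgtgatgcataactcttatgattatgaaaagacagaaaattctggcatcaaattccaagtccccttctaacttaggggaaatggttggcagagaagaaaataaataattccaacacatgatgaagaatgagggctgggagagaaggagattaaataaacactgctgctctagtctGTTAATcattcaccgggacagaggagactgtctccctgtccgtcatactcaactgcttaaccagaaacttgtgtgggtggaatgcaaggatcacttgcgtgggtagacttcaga
Vtn: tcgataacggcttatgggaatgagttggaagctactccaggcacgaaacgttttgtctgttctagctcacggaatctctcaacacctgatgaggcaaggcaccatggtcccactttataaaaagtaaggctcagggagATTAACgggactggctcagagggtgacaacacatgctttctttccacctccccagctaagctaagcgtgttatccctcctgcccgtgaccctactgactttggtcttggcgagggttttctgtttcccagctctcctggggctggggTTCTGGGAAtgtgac
C4bp holds the partial HNF1 motif at -64. Vtn holds it on the opposite strand at -112, and a STAT-type site at 36 after the start. C6, Mbl1 and Mbl2 hold none of these motifs in the window. RefSeq windows were matched for 23 members, in 24 windows. The partial HNF1 motif occurs in 9 of the 24, against 7.10% of all 32851 windows, and the STAT-type site in 5, against 8.30%. For the C/EBP-type site the count was 3, against 10.8%, and for the NF-kB-type site 9, against 50.8%. These are letter matches, not tested sites.

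The other 4 tested regulators passed in no comparison. Clu encodes clusterin, an extracellular chaperone that also binds the terminal complex. It read -0.03, -0.07 and -0.21 in controls, 0.06, 0.20 and -0.10 with 5 g/kg, and -0.01, 0.78 and 0.13 with 7 g/kg. A single 7 g/kg sample stood apart, and the change of 0.40 did not pass (adjusted p = 0.201). Cfi, the protease that inactivates C3b and C4b, changed by 0.02 and 0.04. Cd55, the membrane regulator that speeds convertase decay, changed by 0.15 and 0.02, and its paralog Cd55b by 0.01 and -0.14. Serping1, the C1 inhibitor, changed by -0.09 and -0.15, from 2 usable samples per ethanol group.

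C3, the protein on which all arms converge, did not pass. It read 0.29, 0.09 and 0.00 in controls, 0.19, 0.00, 0.56 and -0.03 with 5 g/kg, and -0.36, 0.06 and 0.39 with 7 g/kg. The 7 g/kg samples spanned the whole control range. The change was 0.05 at 5 g/kg, with a 95% interval from -0.32 to 0.42, and -0.10 at 7 g/kg, with an interval from -0.49 to 0.30. A second C3 probe gave 0.40 and 0.02.

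None of the 3 alternative-arm genes passed. Cfb, the protease component of the alternative convertase, changed by -0.08 and 0.01 and Cfp, encoding properdin, which stabilises that convertase, by 0.02 and -0.10. Cfd encodes factor D, also known as adipsin for its synthesis in fat. It read -0.59, 0.03 and -0.14 in controls, -0.40, 0.13, -0.47 and 0.05 with 5 g/kg, and 0.57, -0.03 and -0.57 with 7 g/kg. Its SE was 0.247 at 7 g/kg, the largest among the tested members, against 0.128 for the median gene, and its change there was 0.22 (adjusted p = 0.714). The 10 adipocyte markers averaged -0.56 to -0.20 in controls, -0.39 to -0.25 at 5 g/kg and -0.12 to 0.07 at 7 g/kg. Without Car3, which varied most among them, the other 9 averaged -0.40 to -0.22, -0.11 to -0.05 and -0.21 to -0.07. The doses then overlapped, and both lay above the controls. Of the 10 markers, 0 passed at 5 g/kg. At 7 g/kg 3 were higher and 0 lower, against 4.64% and 4.28% of all genes. Between the doses 1 was higher, against 0.678%. The part of these markers in the Cfd values was not tested.

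The anaphylatoxin receptors, carried mainly by myeloid cells, also missed the threshold. C5ar1 read -0.35, -0.11 and -0.06 in controls, -0.01, 0.23, -0.11 and 0.30 with 5 g/kg, and 0.00, -0.03 and 0.02 with 7 g/kg. It changed by 0.28 at the low dose (adjusted p = 0.262) and by 0.18 at the high dose (adjusted p = 0.518). C3ar1 changed by -0.05 and 0.18, and its second probe by 0.02 and -0.01. The 11 tested neutrophil markers, of 13 listed, averaged -0.18 to -0.06 in controls, -0.22 to 0.24 at 5 g/kg and 0.16 to 0.23 at 7 g/kg. There 2 of them, S100a8 and S100a9, were higher, against 4.64% of all genes. Of the 11 changes at 7 g/kg, 9 were above 0 and 2 below, with a median of 0.11 and a highest of 1.40. S100a8 stood well above background on 0 control arrays, so it passed the filter only through the ethanol arrays. The part of neutrophils or other myeloid cells in the receptor values was not tested.

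A further 36 complement-related genes were listed, of which 32 were on the array and 26 tested. At 5 g/kg 1 was higher and none lower, which is 3.85% called against 3.77% of all genes. At 7 g/kg 2 passed, or 7.69% against 8.91%, so both counts are near the background. Between the doses 1 was higher, or 3.85% called against 1.56%. Their median changes were 0.01, 0.03 and -0.02. Apcs, encoding serum amyloid P, a pentraxin that binds C1q and C4-binding protein, read -0.99, -0.94 and -1.15 in controls, -0.52, -0.68, -0.22 and -1.39 with 5 g/kg, and -0.16, 0.45 and 1.19 with 7 g/kg. All 7 g/kg samples were above the others, 2.86-fold above controls (log2 change 1.52, SE 0.294, adjusted p = 0.00425). Against 5 g/kg the change was 1.20 (adjusted p = 0.0436). Within slides the change against controls was 0.78 and 2.34. The call against 5 g/kg was lost with slide or replicate number as a block, and without any 1 sample other than 5 g/kg sample 3 or 7 g/kg sample 1.

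Calr, an ER chaperone that also binds C1q, read -0.46, -0.56 and -0.65 in controls and 0.66, 0.28, 0.26 and -0.20 at 5 g/kg. It was 1.75-fold higher at 5 g/kg (adjusted p = 0.0164), and at 7 g/kg the change was 0.30 (adjusted p = 0.412). Within slides the 5 g/kg change of Calr was 0.45 to 1.13, and its call was lost without control sample 2 or 3.

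Hepatic acute phase proteins, secreted like complement into plasma, gave far larger differences on the same arrays. Of 20 listed genes, Apcs among them, 18 were tested. With 5 g/kg 10 were higher, against 2.19% of all genes, and with 7 g/kg 16, against 4.64%. The median log2 changes of the 18 genes were 1.26 and 2.34. Their mean log2 ratio was -1.95 to -1.73 in controls, -0.37, -0.75, 0.50 and -1.47 at 5 g/kg, and 0.51 to 1.12 at 7 g/kg. The mean over the 27 complement members ran from -0.20 to -0.05, from -0.14 to -0.04 and from -0.05 to 0.08 in these groups. The 13 tested coagulation factors had 1 higher and 3 lower at 7 g/kg, against 4.64% and 4.28% of all genes, with a median of 0.00.

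**Figure D4:**
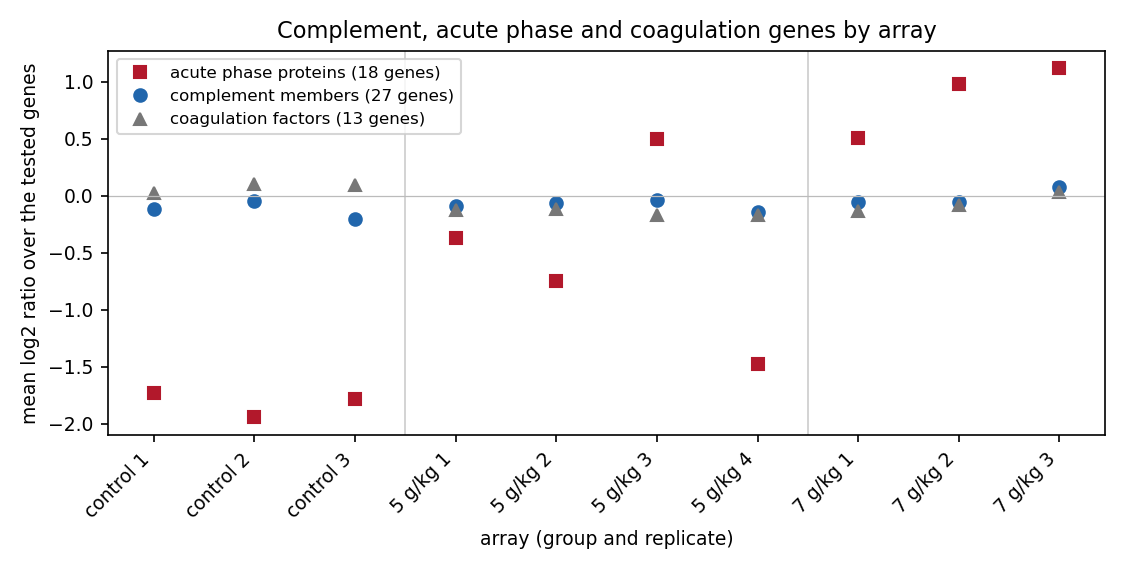
Mean log2 ratio of liver over reference (y axis) per array (x axis, group and replicate) for the tested acute phase genes, complement members and coagulation factors; each point is the mean of the genes of a list on 1 array. Acute phase means lie between -1.95 and 1.12, while complement means lie between -0.20 and 0.08.

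Of 12 genes that carry cytokine signals to hepatocyte promoters, Stat3 and Il1r1, the interleukin 1 receptor, were higher at both doses. Stat3, the transcription factor activated by interleukin 6, changed by 0.90 and 1.33. Il1r1 changed by 1.75 and 2.47. At 7 g/kg Socs3, the feedback inhibitor of that pathway, and Junb were higher too, by 0.93 and 1.31. How these bear on the complement genes was not tested.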

How the data were processed

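The scanner software, Agilent Feature Extraction 11.5.1.1, gave a median intensity and background for 45018 spots per channel, per the file headers. The log10 ratio of red over green processed intensity is the software's own, as deposited. Column values of the deposited series table are log2 ratios, read from a slope of 3.32 on the log10 ratio; its making is not given in the sources used here. Cy5 holds liver RNA, per the labels.

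From the median intensities, R 4.3.3 and limma 3.58.1 gave normexp correction (offset 50) and loess ratios within each array, with control spots weighted 0 and spots marked as outliers missing (2.42% to 5.83% per array). Spots of a probe were averaged. Probes entered if the Cy5 channel was well above background on at least 3 arrays with 2 values per group, and the brightest probe stood for a gene. Of 41174 probes, 24375 (59.2%) matched a RefSeq symbol. Group means were fitted over all 10 arrays at once, with empirical Bayes moderation, two-sided tests and Benjamini-Hochberg adjustment. The number of arrays limits precision. The fit was tested on simulated data. After each group's mean was subtracted, the 9 same-numbered pairs of samples from different groups correlated by -0.21 to 0.20. The 24 differently numbered pairs correlated by -0.32 to 0.24, so replicate numbers were not treated as pairs. Because the arrays were designed on mm8, coordinates are given for RefSeq windows only.

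All 31 members were to be named, in full those with the smallest p in each arm, and of the other complement genes up to 8 with the smallest p plus listed paralogs of members. Apcs, C4a and Calr fell under this; 1 further gene is not reported here. Members and gene lists were chosen with earlier results of these data known. Alternatives concerned background, normalization, filters, blocks, probes, prior, threshold and each array left out.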

Additional observations from a re-analysis of the deposited data

Results flagged for a closer look

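In 19 members with 4 usable values at 5 g/kg, single samples were checked for standing apart, by the gap to the nearest sample as a share of the group's range; chance marks about 1 in 20 groups, and 3 were marked. For C1qa the highest sample, at 0.02, had a gap of 0.919 of the range to the next, at -0.34. For C1ra the highest, at 0.16, had a gap of 0.944 to the next, at 0.01. For C6 the lowest, at -0.27, had a gap of 0.977 to the next, at -0.11.

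Against the shared controls, 2 genes differed between the doses by the test of that difference itself. C6 was higher at 7 than at 5 g/kg by 0.51 on the log2 scale (3 of 3 samples above all 4), and Apcs by 1.20 (3 of 3 samples above all 4).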

How the results depend on the processing

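Across 27 alternatives and 2151 results of single members, 2081 kept their side of the threshold, 64 lost the call and 6 gained one (all Vtn between the doses). Of the 2081, 1979 kept their sign and 102, none of them called, took the other sign, all with a main change of at most 0.22 in size. No called change turned its sign. C6 at 7 g/kg kept its call in all 27. Mbl2 at both doses lost it only from the Cy5 channel alone, as did C4bp at 7 g/kg, where 25 alternatives could be run. C4b kept its call in 9, Mbl1 in 16, Cd59a in 17, Vtn in 19, and C6 between the doses in 13.

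Members called at 7 g/kg were 7 (5 higher, 2 lower). They were 4 (3 and 1) with slide as a block, 3 (2 and 1) with median centring, 1 from Cy5 alone, 4 (2 and 2) from the scanner's processed signals, 4 from the series table, 3 at an adjusted p under 0.01, and 3 to 7 with a sample left out (3 without control 3 or 7 g/kg sample 2, 4 without 7 g/kg sample 1 or 3). Without 7 g/kg sample 1 or 2, C4bp had too few values to be tested, so it could not be among the members called there. At 5 g/kg the 1 call became 0 from Cy5 alone and stayed 1 with any sample left out. Between the doses the 1 call became 0 with slide as a block, plain background subtraction, median centring, Cy5 alone, the processed signals, the series table and the 0.01 threshold. It became 2 with marked spots kept (C6 and C8a), and 2, C6 and Vtn, with the mean of all probes, the trended robust prior, array weights and the 0.10 threshold. Leaving out a sample gave 0 to 2.

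Of the other complement genes, the 1 call at 5 g/kg became 0 with median centring, Cy5 alone, the processed signals, the series table and the 0.01 threshold, and was 0 to 1 with a sample left out. At 7 g/kg 2 became 1 from Cy5 alone. Between the doses 1 became 0 with slide as a block, plain subtraction, Cy5 alone, the processed signals, the series table, no filter on dim probes, the trended robust prior, array weights, only the 2 groups compared and the 0.01 threshold, and was 0 to 1 with a sample left out. Causes of these changes were not tested, other than the stricter threshold.

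Same-numbered samples share only a number. With it as a replicate block, members called were 1, 5 and 0, and between the doses the 1 other complement gene called was Calr, lower, in place of Apcs. Over all genes, the share of calls that were higher moved from 57.9% to 75.0% at 5 g/kg and from 52.0% to 66.6% at 7 g/kg with median centring. Groups of 3 or 4 arrays limit which changes of this size can pass.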
